A study of Mus musculus with 4 samples.

Results

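Nuclear-encoded genes of the mitochondrial respiratory chain were described in spatial transcriptomes of Nf1+/- mouse brain. They were taken by symbol as the genes that begin with Nduf, Uqcr or Atp5, those that begin with Cox and a digit, and Sdha, Sdhb, Sdhc and Sdhd, with at least 100 unique molecular identifiers (UMIs) over all sections. Of 32285 genes in the files, 103 symbols matched and 102 genes were kept. The gene left out was Cox8c, at 0 UMIs. By complex, 45 genes belonged to complex I (7 core subunits, 30 accessory subunits and 8 assembly factors), 4 to complex II, 8 to complex III, 28 to complex IV (18 subunits, 9 assembly factors and the supercomplex factor Cox7a2l) and 17 to complex V (5 of the F1 head and 12 of the Fo part, the stalk or the membrane). The symbols leave out cytochrome c, cytochrome c1 and several assembly factors, which were counted as a separate list.

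All 4 sections were 10-µm slices of fresh frozen brain from mice labelled Nf1+/-, which carry 1 mutant copy of Nf1, the gene for the RAS inhibitor neurofibromin, in the germline and so in every cell. The labels give no allele, age, sex or treatment, the methods give a C57/BL6 background for all mice of the study, and wild-type tissue was not analysed here. RNA was captured with Visium, where barcoded spots take up poly(A) RNA from the tissue above them, so a spot is a small region and not a cell. How many mice gave the sections is not in the labels, so n is a number of sections, named 1 to 4, and each p-value measures only the spread between these sections, which may be technical.

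The respiratory chain passes electrons from NADH at complex I and from succinate at complex II through ubiquinone to complex III, from there through cytochrome c to complex IV, and so to oxygen. Complexes I, III and IV pump protons across the inner mitochondrial membrane, and complex V, the ATP synthase, makes ATP as they flow back. Complex II is encoded in the nucleus alone, while the others also hold subunits from mitochondrial DNA. Several complex IV subunits exist as a common isoform and a second one known from particular tissues, such as Cox6a2, Cox7a1 and Cox8b of muscle, Cox6b2 of testis and Cox4i2 of lung. Neurons depend on oxidative phosphorylation for synaptic activity, whereas mature oligodendrocytes are known to live largely on glycolysis.

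Spots with at least 500 UMIs were used, 1537, 2358, 2294 and 1431 in sections 1 to 4, at medians of 8862.5 to 15296.5 UMIs per spot and 19261103 to 37001945 UMIs per section. In each section, neuron-rich and white matter spots were the 10% with the largest excess of UMIs of 8 neuron or 8 oligodendrocyte markers over the number their depth predicts, and choroid plexus spots held at least 3 of 10 markers of choroid plexus epithelium, the tissue that secretes cerebrospinal fluid. No respiratory chain gene was a marker. There were 140, 236, 229 and 143 neuron-rich spots, 137, 236, 229 and 120 white matter spots, and 189, 4, 7 and 76 choroid plexus spots, so that only sections 1 and 4 entered with choroid plexus. The markers that chose the spots were high in them by construction, so their sums describe the groups and are no check of the labels. The 10 epithelial markers summed to 779 and 1611 CPM (UMIs per 1000000 UMIs of the group) in choroid plexus spots of sections 1 and 4, against 5.84 to 33.5 CPM in neuron-rich spots, and the 8 oligodendrocyte markers summed to 13292 to 25836 CPM in white matter, against 1746 to 2267 CPM in neuron-rich spots. Second lists of 8 oligodendrocyte and 8 neuron markers were not used to choose the main groups. By the test given below, all 8 of these oligodendrocyte markers were lower in neuron-rich than in white matter spots (median log2 fold change -3.47). Of these neuron markers, 7 of 8 were higher (median 1.41). Choroid plexus had no second list. The groups were not pure. Ependymal markers reached 439 and 690 CPM, fibroblast markers 282 and 631 CPM and neuron markers 4266 and 2479 CPM in choroid plexus spots, and no marker of these lists was at 0 there.

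Over all spots, the 102 genes made up 5.58% ± 0.21 (SD, n = 4 sections) of the UMIs. Their summed level was 55763 ± 2148 CPM, of which complex I held 16725, complex II 726, complex III 5078, complex IV 18207 and complex V 15027 CPM. Every spot used held at least 1 of their UMIs, and the median share per spot was 5.54%, 5.22%, 5.67% and 5.43% in sections 1 to 4. The share was thus alike in the sections, with section 2 the lowest. The 13 mitochondrially encoded subunits summed to 147053 CPM over the same spots. A UMI marks 1 captured molecule and is not divided by gene length, and capture can differ between genes, so levels below are compared between samples and not between genes.

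Single genes also varied little between sections. For the 81 genes at a mean of at least 100 CPM, the highest section exceeded the lowest by a ratio of 1.02 to 1.39, with a median of 1.12, and section 2 was the lowest for 49 of them. Cox8a, the common isoform of subunit 8 of complex IV, was counted at 2296, 2212, 2789 and 2880 CPM in sections 1 to 4, so sections 3 and 4 lay above the other two. Uqcr11, a small subunit of complex III, was counted at 1129, 1096, 1149 and 1068 CPM. Sdha, the flavoprotein that oxidises succinate, was counted at 257, 273, 265 and 262 CPM. Neither showed a section far from the others. The 21 genes below 100 CPM spread more, with ratios from 1.04 to 6.78. They included the second isoforms Cox6a2 (38.7 ± 6.06 CPM, SD, n = 4), Cox7a1 (12.4 ± 2.64 CPM), Cox6b2 (10.9 ± 3.11 CPM), Ndufa4l2 (5.90 ± 1.09 CPM), Cox4i2 (5.83 ± 0.76 CPM) and Cox8b (5.82 ± 2.81 CPM), which rest on 545 to 3895 UMIs each.

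The first comparison asked how the chain differed between neuron-rich tissue and white matter. The 102 genes held more of the UMIs in neuron-rich spots, at 5.90%, 5.50%, 6.21% and 5.69% in sections 1 to 4, than in white matter, at 4.97%, 4.99%, 4.89% and 4.61%. Spots in none of the groups held 5.62%, 5.28%, 5.80% and 5.65%. White matter was therefore lowest in every section, and its range did not overlap that of neuron-rich spots. The 95% binomial intervals (Wilson) of these shares were 0.016 to 0.112 percentage points wide and cover counting error only. The summed level was higher in neuron-rich spots by a log2 ratio of 0.25, 0.14, 0.35 and 0.31 in sections 1 to 4 (mean 0.26 ± 0.09, SD), with no test made of a sum.

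**Figure D1:**
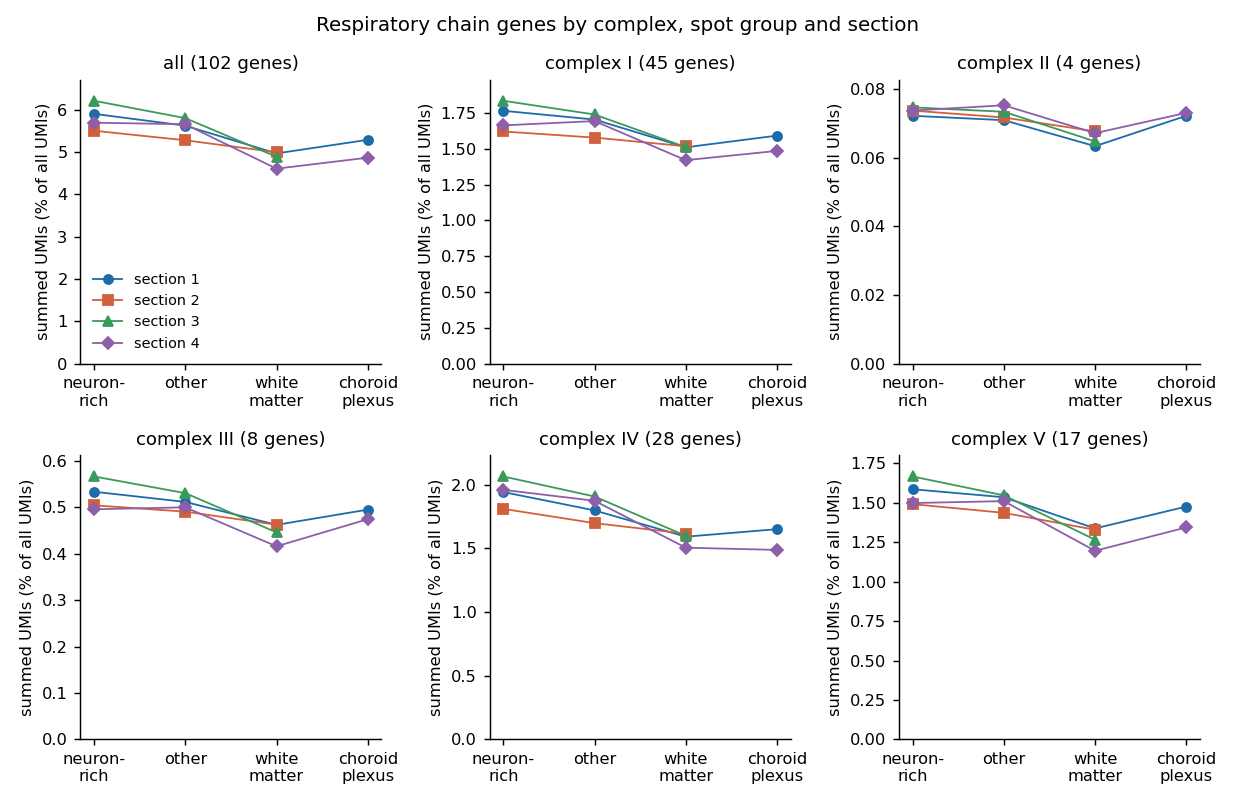
Summed UMIs of the respiratory chain genes as a percent of all UMIs of the spot group (y axis), for all 102 genes and for each complex, in neuron-rich, other, white matter and choroid plexus spots (x axis). Each point is 1 section and lines join the groups of a section, and all 102 genes together were lowest in white matter in each section.

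Depth moved with these groups. The median was 13697 to 23034.5 UMIs per spot in neuron-rich spots and 3602 to 7885 in white matter, and fewer cells of a type cannot be told apart from less RNA per cell. The 13 mitochondrially encoded subunits went the other way, with log2 ratios of -0.30, -0.52, -0.16 and -0.22 for the neuron-rich over the white matter spots. A second total left out those 13 genes, all markers used to choose spot groups here and below, and Ttr (transthyretin). With it the mean log2 ratio of the 102 genes was 0.20.

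Gene by gene, 35 of the 102 were higher in neuron-rich spots, 3 were lower and 64 did not pass the test (edgeR's quasi-likelihood test on UMIs summed per section and group, section as a block, adjusted p under 0.05 over 13526 genes). Over all genes tested, 19.3% were higher and 21.0% lower. The median log2 fold change was 0.14 over the 102 genes and -0.02 over all genes. Of the 102, 54 lay above 0 in each of the 4 sections and 12 lay below 0 in each. Of all 13526 genes tested, 3228 lay above 0 in each section and 3788 below. The number called depended on section 3. Without it 8 of 101 genes tested were called higher (7.92%, against 13.8% of all genes), and with spots thinned to 5000 UMIs 12 of 99 were (12.1%, against 13.3%), all of them among the 35. In a fit of these 2 groups alone 20 of 100 were, against 19.3% of all genes, so the share of the 102 genes was above that of all genes in the fit given first but near or below it in these 3 settings. Scaling to total UMIs in place of TMM moved the median of all genes from -0.02 to 0.08 and the calls to 61 higher and 2 lower, against 24.8% and 17.5% of all genes.

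In complex I, 12 of 45 genes were higher in neuron-rich spots (26.7%, against 19.3% of all genes) and 1 was lower (2.22%, against 21.0%). The higher genes included 4 of the 7 core subunits, which carry the flavin and the iron-sulfur clusters, among them Ndufs3 at a log2 fold change of 0.32 (SE 0.11, edgeR adjusted p = 0.025) and Ndufv2 at 0.24. They included 8 of the 30 accessory subunits, which surround the core. Ndufa10 was counted at 191, 226, 224 and 216 CPM in neuron-rich spots and at 122, 160, 148 and 132 CPM in white matter, so the groups did not overlap. Its log2 fold change was 0.49 (SE 0.09, edgeR adjusted p = 0.0002). Ndufb6 followed at 0.45 (SE 0.09). None of the 8 assembly factors passed the test in edgeR or DESeq2 (median 0.16), and 1 was higher at an unadjusted p under 0.05 in edgeR. The lower gene was Ndufa3, an accessory subunit, at 858, 709, 830 and 769 CPM in neuron-rich spots and 934, 848, 874 and 885 CPM in white matter (log2 fold change -0.27, SE 0.07, edgeR adjusted p = 0.0069). The white matter values of Ndufa3 lay above those of the neuron-rich spots within each section, and its edgeR call was lost in 3 of 15 alternatives, with log2 fold changes from -0.38 to -0.16 over the 15.

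Complex II gave no call. None of its 4 genes passed the test in edgeR or DESeq2 in either direction, and 0 had an unadjusted p under 0.05 in edgeR. Sdha was counted at 268, 281, 266 and 268 CPM in neuron-rich spots and 236, 255, 235 and 280 CPM in white matter (log2 fold change 0.01, SE 0.08). Sdhb, the iron-sulfur subunit, gave 0.10, and the membrane anchors Sdhc and Sdhd gave -0.12 and 0.22. The summed level of complex II was nonetheless higher in neuron-rich spots in each section before TMM scaling, by 0.19, 0.12, 0.21 and 0.14. Whether complex II differed from the other complexes was not tested.

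In complex III, 5 of 8 genes were higher in neuron-rich spots (62.5%, against 19.3% of all genes). None was lower in edgeR (against 21.0%) or DESeq2, nor at an unadjusted p under 0.05 in edgeR. The 5 were the core proteins Uqcrc2 (0.31, SE 0.08) and Uqcrc1 (0.28, SE 0.08), the small subunits Uqcrq (0.24) and Uqcrb (0.23), and Uqcrfs1 (0.23), the Rieske iron-sulfur protein that hands electrons to cytochrome c1. Uqcr11 did not pass (0.01). In complex V, 9 of 17 genes were higher (52.9%, against 19.3% of all genes) and none was lower in edgeR (against 21.0%). At an unadjusted p under 0.05 in edgeR 1 gene was lower, and DESeq2 called 1 lower. The higher genes included Atp5a1 (0.28) and Atp5b (0.24), the alpha and beta subunits that form the catalytic head, and Atp5o (0.25) and Atp5f1 (0.30) of the peripheral stalk. Atp5md, a small membrane subunit, was counted at 2172, 1825, 2293 and 1902 CPM in neuron-rich spots and at 1643, 1571, 1511 and 1299 CPM in white matter. All 4 neuron-rich values were above the white matter values (log2 fold change 0.33, SE 0.08, edgeR adjusted p = 0.0027). Of the 3 genes for subunit c, the ring that turns in the membrane, Atp5g1 (0.33, SE 0.08) and Atp5g3 (0.25, SE 0.07) were higher. Atp5g2 had a log2 fold change of -0.19 and an edgeR adjusted p of 0.050, just above the threshold. The Atp5g3 call was lost in 5 of 15 alternatives and the Atp5g1 call in 2 of 15. Most calls of complexes I, III and V were not recomputed one by one under the alternatives. Without section 3, 8 of 101 genes of all complexes were called higher (against 13.8% of all genes), so most of these calls cannot have held there.

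Complex IV held the widest range of all. Of its 28 genes, 9 were higher in neuron-rich spots (32.1%, against 19.3% of all genes) and 2 were lower (7.14%, against 21.0%). Among the common subunits, Cox5a, which lies on the matrix side of the enzyme, was counted at 767, 888, 957 and 816 CPM in neuron-rich spots and at 467, 604, 541 and 444 CPM in white matter. The groups did not overlap, and the log2 fold change was 0.63 (SE 0.09, edgeR adjusted p = 1.1e-05). Cox7b, a small membrane subunit, was counted at 1021, 915, 1069 and 1029 CPM against 711, 696, 618 and 613 CPM (log2 fold change 0.50, SE 0.08). Ndufa4, once assigned to complex I and now known as a subunit of complex IV, was counted at 2201, 1866, 2094 and 1979 CPM against 1467, 1459, 1262 and 1381 CPM (log2 fold change 0.44, SE 0.08). These genes were higher in every neuron-rich sum than in any white matter sum. Cox7a2 (0.28) and Cox8a (0.21) were also called. Cox4i1 (0.06), Cox6a1 (0.15) and Cox6b1 (0.14), the common isoforms of 3 other subunits, did not pass. The Cox8a call was lost in 5 of 15 alternatives, its log2 fold change ranging from 0.09 to 0.32. Among assembly factors, Cox14, Cox18 and Cox11 were higher by 0.40, 0.44 and 0.41, and Cox20, a chaperone of the mitochondrially encoded subunit 2, was lower. Cox20 was counted at 92.9, 79.5, 109 and 85.1 CPM in neuron-rich spots and at 128, 95.3, 134 and 129 CPM in white matter (log2 fold change -0.50, SE 0.12, edgeR adjusted p = 0.0020).

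The 2 genes with the widest difference were second isoforms, in opposite directions. Cox6a2 (ENSMUSG00000030785), known from heart and skeletal muscle, was counted at 42.4, 64.4, 69.8 and 76.2 CPM in neuron-rich spots of sections 1 to 4 and at 16.1, 23.3, 19.1 and 9.32 CPM in white matter. All neuron-rich sections lay above all white matter sections, by a log2 fold change of 1.64 (SE 0.23, edgeR adjusted p = 1.6e-05), and the call held in 15 of 15 alternatives. Cox6b2 (ENSMUSG00000051811), known from testis, was counted at 7.99, 5.27, 5.03 and 1.92 CPM in neuron-rich spots, from 26, 28, 17 and 6 UMIs, and at 15.3, 14.3, 25.2 and 28.0 CPM in white matter, from 18, 22, 25 and 15 UMIs. Here all white matter sections lay above all neuron-rich sections (log2 fold change -1.99, SE 0.35, edgeR adjusted p = 0.0002, held in 15 of 15 alternatives). Cox7a1, Cox8b, Cox4i2 and Ndufa4l2 did not pass, at 0.06, -0.46, -0.90 and -0.66.

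**Figure D2:**
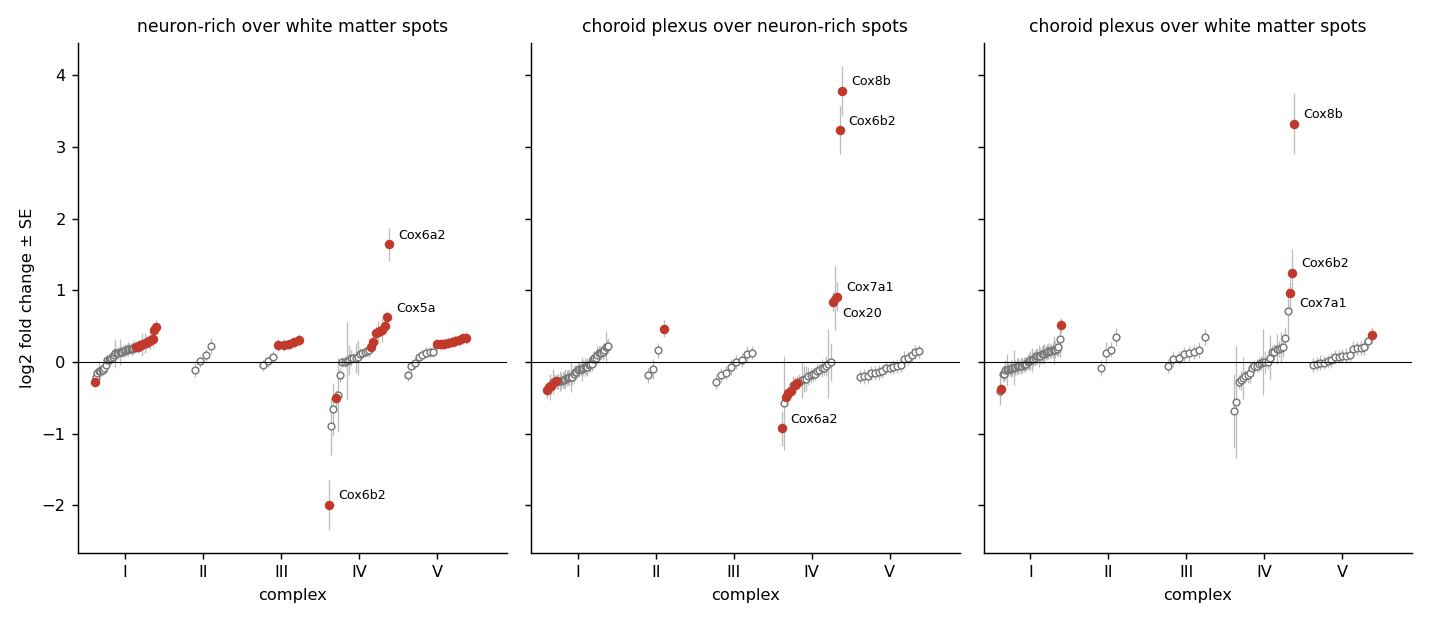
Log2 fold change with its SE (y axis) of each of the 102 genes, by complex (x axis), for the 3 comparisons of spot groups. Red points passed an adjusted p of 0.05, open points did not, and the genes with the widest changes are second isoforms in complex IV.

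Other genes of energy metabolism give the setting, beside 19.3% of all genes higher and 21.0% lower in neuron-rich spots. All 13 mitochondrially encoded subunits were lower in neuron-rich than in white matter spots (median log2 fold change -0.47). Of the 8 cytochrome c and complex III genes that the symbols leave out, 5 were higher and 3 did not pass (median 0.34, lowest 0.01), with Ttc19, a complex III assembly factor, at 0.56 and Cycs, cytochrome c, at 0.55. Of 17 genes around the tricarboxylic acid cycle, 10 were higher and 2 lower (median 0.28), from Idh3a at 0.73 to Idh2 at -1.12. Of 16 glycolysis genes tested, 15 were higher and 1 lower (median 0.60), and of 13 genes of fatty acid oxidation, all 13 were lower (median -0.74). Of 9 regulators of mitochondrial biogenesis tested, Ppargc1a (0.68), Esrra (0.62) and Esrrg (0.91) were higher and Yy1 (-0.30) was lower. Markers of other cells moved with this contrast too. All 8 microglia markers (median -1.21), 7 of 8 markers of oligodendrocyte precursors (-1.65), all 8 markers of striatal projection neurons (-1.72), 6 of 8 ependyma markers (-1.90) and 6 of 10 choroid plexus markers (-2.13) were lower in neuron-rich spots, all 8 VGLUT1 neuron markers were higher (1.48), and the part of cell types in the values of the chain was not tested.

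Bins of spots showed whether the share changed step by step. Ordered by the neuron marker score in 10 equal bins, the share of the 102 genes went from 5.08% in the lowest bin to 5.99% in bin 9 and 5.83% in bin 10 of section 1. It went from 4.91% to 5.50% in section 2, from 5.26% to 6.21% in section 3 and from 5.26% to 5.69% in section 4, where bin 9 stood at 5.82%. In each section the share of all UMIs went up over most of the bins rather than at 1 step. The mitochondrially encoded share went down over the same bins, in section 2 from 19.9% to 9.42%. In section 1 it first went up from 15.8% in bin 1 to 19.5% in bin 2. The bin totals include these mitochondrially encoded UMIs, and the second total, which leaves them out, was not applied to the bins. Whether the share of the 102 genes goes up over the bins without them was therefore not tested. Ordered by the oligodendrocyte score, the share lay between 5.19% and 5.98% in bins 1 to 9 of the sections and was lowest in bin 10, at 4.99%, 4.99%, 4.89% and 4.57%. Along this score the low share thus lay in the spots richest in myelin genes, which were also the shallowest of each section (medians of 3602 to 7886 UMIs). Low shares were not confined to them. In section 2 the lowest bin of the neuron score held 4.91%, at a median of 16051 UMIs per spot.

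**Figure D3:**
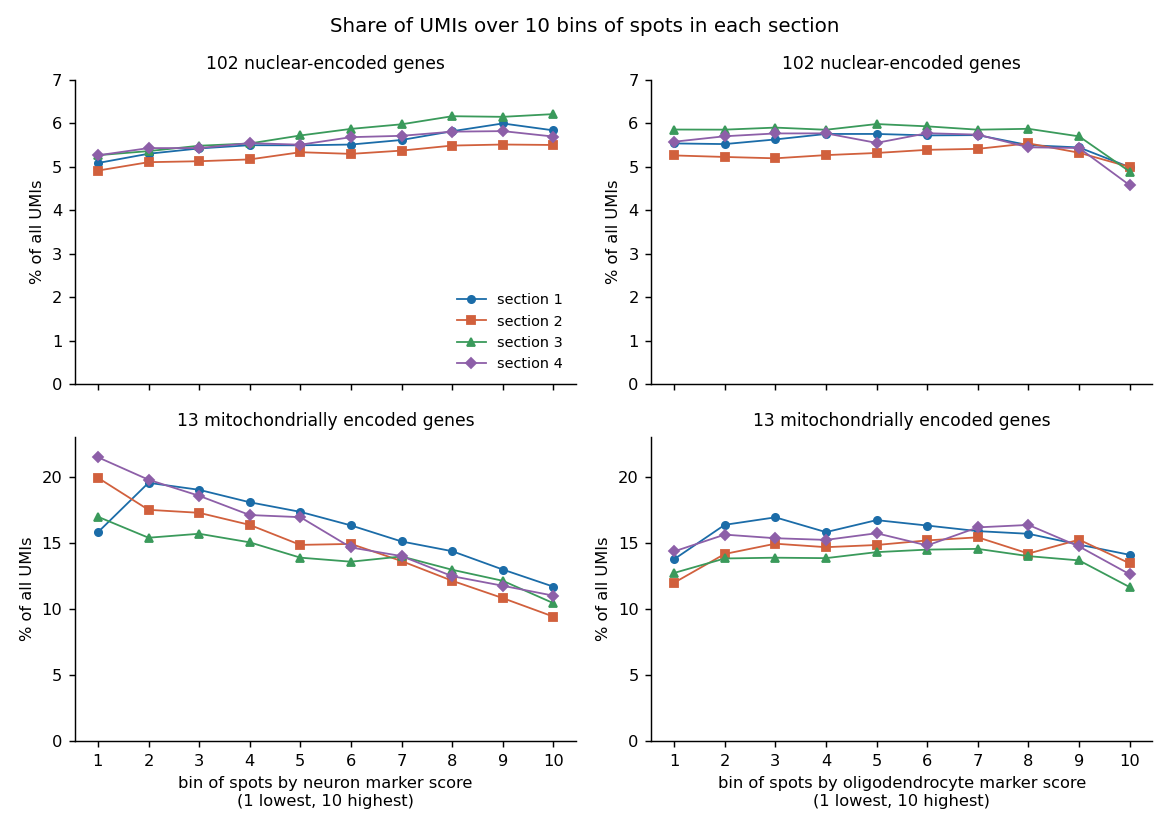
Percent of all UMIs (y axis) held by the 102 nuclear-encoded genes (top) and the 13 mitochondrially encoded genes (bottom) over 10 bins of spots ordered by neuron or oligodendrocyte marker score (x axis). Each line is 1 section, and in the top right panel the lines run between 5.19% and 5.98% up to bin 9 and lie at 4.57% to 4.99% in bin 10.

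In choroid plexus the widest differences again lay in complex IV isoforms. The 102 genes held 5.29% and 4.87% of its UMIs in sections 1 and 4, below the neuron-rich values of the same sections (5.90% and 5.69%) and above the white matter values (4.97% and 4.61%). Relative to neuron-rich spots, the summed level was lower by log2 ratios of -0.16 and -0.23, with complex IV at -0.23 and -0.40, complex I at -0.15 and -0.16, complex V at -0.10 and -0.16, complex III at -0.11 and -0.06 while complex II had a mean of -0.0066. Complex IV was lowest in both sections. With the second total, which leaves out the mitochondrially encoded genes, the spot group markers and Ttr, the mean moved from -0.19 to -0.06. Complexes III and V then stood at 0.05 and 0.0060, so their direction rests on that choice.

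Against neuron-rich spots, 5 genes were higher in choroid plexus, 10 were lower and 87 did not pass in edgeR. Over all genes, 14.6% were higher and 11.4% lower, and neither share of the 102 genes (4.9% and 9.8%) exceeded these. The share called lower did exceed that of all genes in other settings, at 20.6% against 11.3% with DESeq2 and 22.5% against 13.6% with total-UMI scaling. The median log2 fold change was -0.11, against 0.02 over all genes. Fits with choroid plexus rest on 2 sections with 189 and 76 spots and take their spread from all groups. Depth differed here too, at medians of 15886 and 6566 UMIs per choroid plexus spot in sections 1 and 4. Neuron-rich spots of these sections had 23034.5 and 21028, and white matter spots 7885 and 4044.5. The rule of at least 3 markers took no account of depth, unlike the scores that chose the other groups. Without section 4, 2 genes were called lower (against 6.79% of all genes). In a fit of the sections with choroid plexus alone, which was added after the data were seen, 1 was (against 6.86%). Against white matter, 5 genes were higher, 1 was lower and 96 did not pass, against 4.27% and 6.06% of all genes. The median there was 0.06, against 0.03 over all genes.

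Cox8b (ENSMUSG00000025488), the second isoform of subunit 8, was counted at 37.5 and 96.1 CPM in choroid plexus spots of sections 1 and 4, from 125 and 57 UMIs. It was counted at 4.92, 2.64, 4.73 and 3.52 CPM in neuron-rich spots and at 5.09, 1.3, 10.1 and 3.73 CPM in white matter, the latter from 6, 2, 10 and 2 UMIs. Both choroid plexus values lay above every other value. The log2 fold change was 3.79 over neuron-rich spots (SE 0.34, edgeR adjusted p = 4.8e-07) and 3.33 over white matter (SE 0.42, edgeR adjusted p = 3.4e-05), and both calls held in 17 of 17 alternatives. In section 3, which did not enter with choroid plexus, 7 spots with at least 3 markers held 8 UMIs of Cox8b, and in section 2 the 4 such spots held 0. The common isoform Cox8a went the other way, at 2093 and 2024 CPM in choroid plexus against 2381 to 3291 CPM in neuron-rich spots (log2 fold change -0.41, SE 0.09, edgeR adjusted p = 0.0027).

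Cox6b2 was counted at 42.5 and 60.7 CPM in choroid plexus, from 142 and 36 UMIs, above the ranges of white matter (14.3 to 28.0 CPM) and of neuron-rich spots (1.92 to 7.99 CPM). The 3 groups thus followed each other without overlap, with spots in none of the groups at 7.46 to 11.3 CPM. The log2 fold change was 3.23 over neuron-rich spots (SE 0.33, edgeR adjusted p = 2.1e-06, held in 17 of 17 alternatives) and 1.24 over white matter (SE 0.34, edgeR adjusted p = 0.022, held in 12 of 17). Its common counterpart Cox6b1 did not pass in either comparison (-0.17 and -0.04). Cox7a1, the muscle isoform of subunit 7a, was counted at 28.5 and 37.1 CPM in choroid plexus, 13.2 to 17.3 CPM in neuron-rich spots and 9.07 to 17.0 CPM in white matter. It was higher in choroid plexus by 0.91 (SE 0.20, edgeR adjusted p = 0.0027) and 0.97 (SE 0.25, edgeR adjusted p = 0.015), calls that held in 15 of 17 and 11 of 17 alternatives, while its common counterpart Cox7a2 did not pass (-0.28 and 0.0047). The second isoforms did not all move one way. Cox6a2 was counted at 31.5 and 10.1 CPM in choroid plexus and was lower than in neuron-rich spots (log2 fold change -0.93, SE 0.25, edgeR adjusted p = 0.010), but without section 4 the fold change was -0.56 and the edgeR adjusted p 0.050, and without section 1 the fold change was -2.70.

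**Figure D4:**
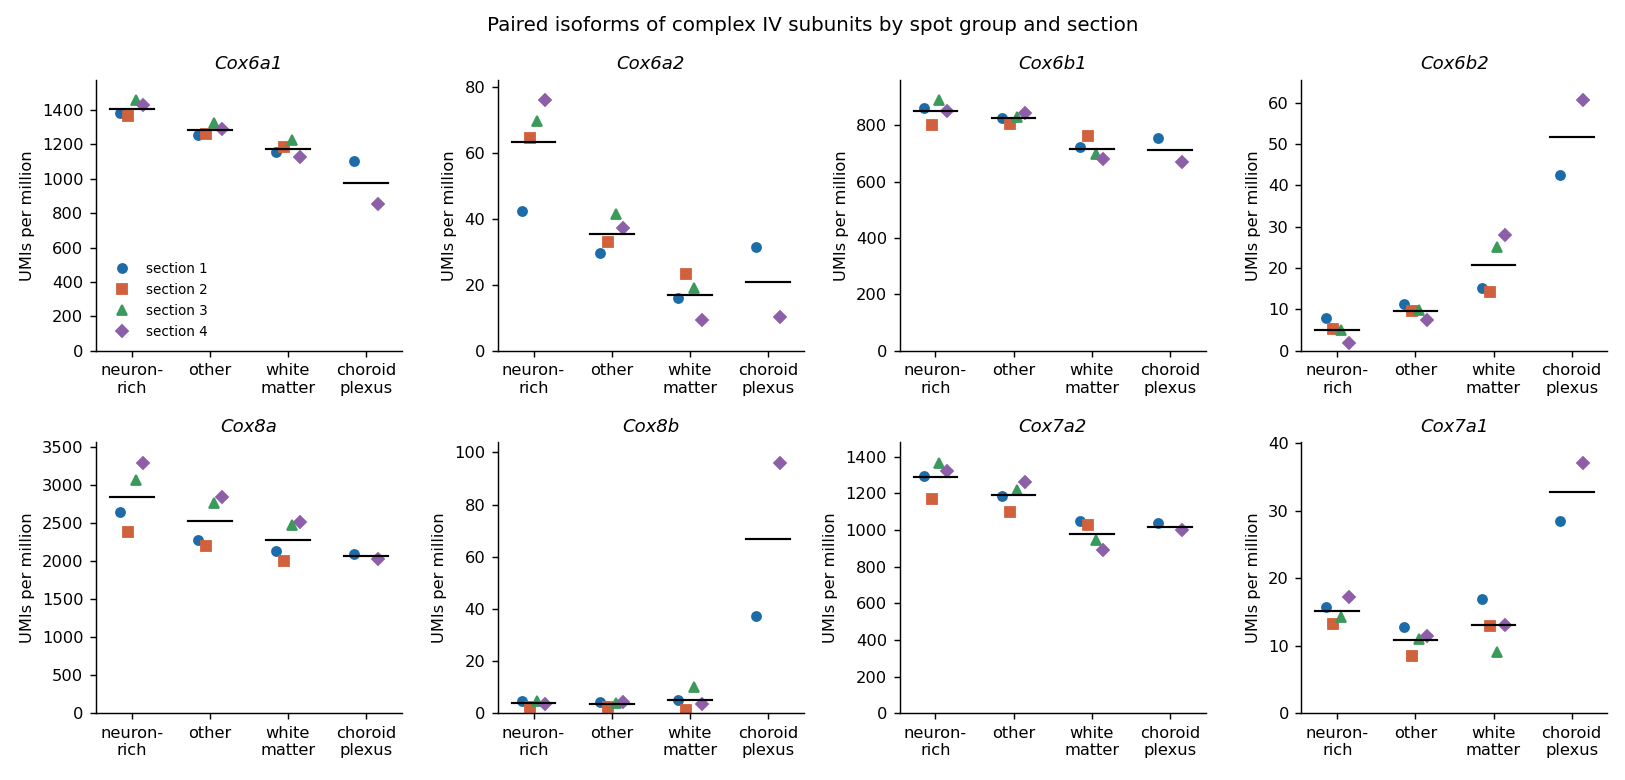
CPM (y axis) of 4 pairs of complex IV isoforms in the 4 spot groups (x axis), with 1 point for each section and a bar at the mean. Cox8b, Cox6b2 and Cox7a1 are highest in the 2 choroid plexus sections, and Cox6a2 is highest in neuron-rich spots.

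Promoters of the 2 pairs with the widest difference in choroid plexus are shown. In each pair, 1 gene was called higher there than in neuron-rich and white matter spots and its counterpart was not. The sequences are from RefSeq (GRCm38.p6), on the strand of the gene, 250 bases long and ending at the base before the annotated start, with CG dinucleotides in capitals. The regions are chr19:7217617-7217866 for Cox8a, chr7:140900447-140900696 for Cox8b, chr7:30626115-30626364 for Cox6b1 and chr7:4753095-4753344 for Cox6b2, all on the minus strand.
Cox8a: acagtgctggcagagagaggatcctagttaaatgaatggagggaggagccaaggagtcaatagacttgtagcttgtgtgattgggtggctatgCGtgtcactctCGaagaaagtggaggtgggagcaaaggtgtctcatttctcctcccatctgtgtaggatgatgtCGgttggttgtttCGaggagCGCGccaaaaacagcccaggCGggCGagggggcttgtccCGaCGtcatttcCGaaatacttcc
Cox8b: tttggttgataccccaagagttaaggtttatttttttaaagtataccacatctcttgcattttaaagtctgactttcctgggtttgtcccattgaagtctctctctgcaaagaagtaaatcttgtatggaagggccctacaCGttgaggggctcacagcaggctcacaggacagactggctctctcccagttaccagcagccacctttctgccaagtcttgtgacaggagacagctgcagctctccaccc
Cox6b1: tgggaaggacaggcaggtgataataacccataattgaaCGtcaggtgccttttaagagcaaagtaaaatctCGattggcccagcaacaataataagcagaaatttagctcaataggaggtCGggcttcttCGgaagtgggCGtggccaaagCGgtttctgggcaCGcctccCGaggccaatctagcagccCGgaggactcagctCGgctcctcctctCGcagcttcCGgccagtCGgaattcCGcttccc
Cox6b2: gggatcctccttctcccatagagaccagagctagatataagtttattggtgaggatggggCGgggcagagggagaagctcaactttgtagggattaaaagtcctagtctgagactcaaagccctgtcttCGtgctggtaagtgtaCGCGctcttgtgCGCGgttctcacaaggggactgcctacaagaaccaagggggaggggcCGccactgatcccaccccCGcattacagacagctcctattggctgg

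Cox8b held 1 CG dinucleotide in this window, the fewest of the 84 genes of the chain with a promoter in the table, while Cox8a held 11. Cox6b2 held 8 and Cox6b1 held 14. Over the 84 genes the median was 15.5 (from 1 to 36), against 6 over 27025 genes. The NRF-1 core GCGCATGC, read on both strands, stood in 9 of the 84 promoters (10.7%, against 2.56% of all genes), the ETS motif CCGGAAG in 17 (20.2%, against 7.83%) and the YY1 motif AAGATGGCG in 1 (1.19%, against 0.71%). The CCAAT box was found in 36 (42.9%, against 37.5%), the GC box GGGCGG in 36 (42.9%, against 35.4%) and TATAAA in 8 (9.52%, against 14.3%). A match describes letters in the window only, and a gene was counted where any of its listed promoters matched. The shares were not matched for CG content, which was higher in the 84 genes than over all genes.

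The other genes called in choroid plexus changed less. Over neuron-rich spots, Cox20 was higher by 0.83 (SE 0.14) and Sdhc, a membrane anchor of complex II, by 0.46 (SE 0.12), the latter at 127 and 155 CPM against 92.3 to 104 CPM. The lower genes besides Cox6a2 and Cox8a were Cox5a (-0.48), Cox6a1 (-0.43), Cox7b (-0.32) and Ndufa4 (-0.30) of complex IV and the accessory subunits Ndufa10 (-0.39), Ndufb8 (-0.35), Ndufs4 (-0.33) and Ndufb9 (-0.27) of complex I. Of the 15, complexes III and V held 0 in edgeR, while 1 and 2 of their genes were lower at an unadjusted p under 0.05 and 2 of each in DESeq2. Over white matter, Ndufv3, an accessory subunit of complex I, was higher by 0.51 (SE 0.11), Atp5g1 by 0.38 (SE 0.11), and Ndufb9 was lower by a log2 fold change of -0.38 (SE 0.09). The call over white matter was lost in 7 of 17 alternatives for Atp5g1 and in 4 of 17 for Ndufb9. The call over neuron-rich spots was lost in 8 of 17 for Ndufa4, in 3 for Cox8a and in 2 each for Cox6a1 and Sdhc. It held in 17 of 17 for Cox5a and Cox20. In the other pathways, 12 of 13 genes of fatty acid oxidation were higher than in neuron-rich spots (median 0.95). Of 16 glycolysis genes 8 were lower (median -0.26), and 8 of 13 mitochondrially encoded subunits were higher (median 0.31). Over all genes 14.6% were higher and 11.4% lower. Markers of ependyma (8 of 8 higher, median 4.64), of fibroblasts (6 of 8, median 2.35), of striatal projection neurons (8 of 8, median 1.91) and of oligodendrocytes (8 of 8, median 1.24) moved with this contrast, and their part in the values was not tested.

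Spots richest in markers of 3 classes of neuron were compared to see how the chain varied within gray matter. In each section, the top 10% of spots outside white matter and choroid plexus were taken by markers of VGLUT1 neurons (the cortical and hippocampal glutamatergic class), VGLUT2 neurons (largely thalamic) or striatal projection neurons, and spots in more than 1 class were left out. The classes entered at a marker enrichment of at least 2-fold, a limit set after seeing the data, because VGLUT1 spots reached 2.10-fold to 2.45-fold and a limit of 3-fold would have left none. Between VGLUT2 and VGLUT1 spots, 4 of the 102 genes were higher, none was lower in edgeR and 98 did not pass, against 7.23% and 9.45% of 11695 genes. At an unadjusted p under 0.05, 9 were higher and 3 lower, and DESeq2 also called none lower. Cox7a1 was counted at 20.3, 12.4, 18.2 and 16.5 CPM in VGLUT2 spots and 13.5, 7.75, 10.1 and 11.5 CPM in VGLUT1 spots, higher in each section (log2 fold change 0.65, SE 0.19, edgeR adjusted p = 0.025). Cox6b2 (0.94, SE 0.26), Cox20 (0.37, SE 0.09) and Ndufa3 (0.27, SE 0.08) were the other genes called. Without section 2 none of the 4 was called. Over 10 alternatives the Cox7a1 call held in 4, the Cox6b2 and Ndufa3 calls in 6 each and the Cox20 call in 7.

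Between striatal and VGLUT1 spots, 29 genes were higher, 4 were lower and 69 did not pass, against 20.5% and 20.7% of all genes. Without section 2 it was 15 higher (14.7%, against 15.1% of all genes) and without section 4 it was 14 (13.7%, against 17.2%). The count also depended on the scaling. With total-UMI scaling the median of all genes moved from 0.02 to -0.10, the median of the 102 genes from 0.12 to -0.01 and the calls to 9 higher and 11 lower, against 13.6% and 27.2% of all genes. As a share of UMIs, the 102 genes did not differ in a fixed direction, at log2 ratios of -0.10, 0.03, -0.10 and 0.03 in sections 1 to 4, so the sections disagreed on the direction of the sum. The 9 genes called higher under both scalings included Cox6b2, Cox20, Ndufa1 and Ndufa3. Ndufa1, an accessory subunit of complex I, was counted at 641, 525, 570 and 707 CPM in striatal spots and 534, 390, 477 and 515 CPM in VGLUT1 spots (log2 fold change 0.49, SE 0.09, edgeR adjusted p = 1.0e-04). Cox20 was counted at 137, 125, 161 and 149 CPM against 91.4, 75.5, 103 and 88.1 CPM (log2 fold change 0.81, SE 0.09).

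All 4 genes lower in striatal spots were lower under both scalings. Cox7a1 was counted at 5.30, 5.60, 4.46 and 3.69 CPM in striatal spots, below each VGLUT1 section (log2 fold change -0.94, SE 0.23, edgeR adjusted p = 0.0025). Cox8a was counted at 2137, 1913, 2281 and 2513 CPM against 2802, 2445, 3265 and 3432 CPM (log2 fold change -0.30, SE 0.07, edgeR adjusted p = 0.0030). Cox6a2 (-0.55, SE 0.19) and Ndufa10 (-0.18, SE 0.07) were the others, and the Ndufa10 call held in 2 of 10 alternatives. The mitochondrially encoded subunits stood out more, with 13 of 13 higher in striatal spots (median 0.63) and log2 ratios of their sum of 0.19 to 0.66. Oligodendrocyte markers were higher in both VGLUT2 and striatal spots than in VGLUT1 spots (8 of 8 in each, medians 0.74 and 0.97), and their part was not tested. Both comparisons share the VGLUT1 spots.

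The last comparison asked where the low isoforms Cox4i2 and Ndufa4l2 lay, which are known from pericytes and smooth muscle of vessels. The top 10% of spots of each section by 8 mural cell markers (154, 236, 229 and 143 spots) were set against all other spots. Cox4i2 (ENSMUSG00000009876) was counted at 12.6, 10.4, 19.9 and 17.5 CPM in mural-marker-high spots, from 28, 37, 43 and 31 UMIs, and at 5.27, 4.72, 5.44 and 4.0 CPM in the others. Ndufa4l2 (ENSMUSG00000040280), a relative of Ndufa4 induced by low oxygen, was counted at 16.2, 20.6, 25.9 and 18.1 CPM against 4.0, 5.35, 4.79 and 3.43 CPM. The groups did not overlap for either gene. The log2 fold change was 1.59 for Cox4i2 (SE 0.18, edgeR adjusted p = 3.3e-08) and 2.19 for Ndufa4l2 (SE 0.16, edgeR adjusted p = 4.6e-13), and each call held in 10 of 10 alternatives. The common isoforms Cox4i1 (-0.03) and Ndufa4 (-0.07) did not pass.

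**Figure D5:**
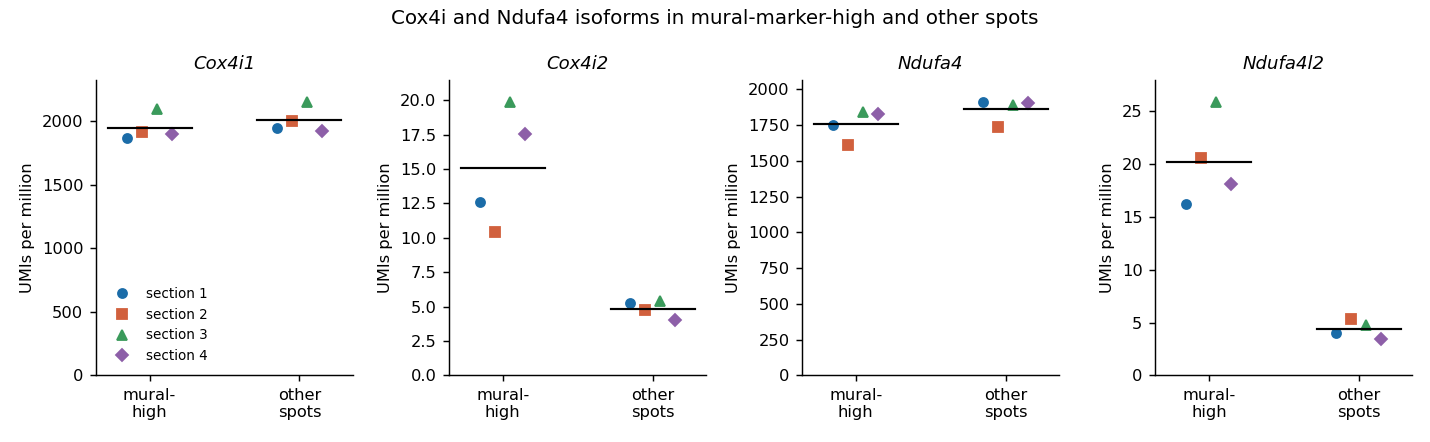
CPM (y axis) of the common isoforms Cox4i1 and Ndufa4 and of the low isoforms Cox4i2 and Ndufa4l2 in mural-marker-high and other spots (x axis), with 1 point for each section and a bar at the mean. Only the panels of the low isoforms show the groups apart, at 10.4 to 25.9 CPM against 3.43 to 5.44 CPM.

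Over all 102 genes, these 2 were the genes called higher, 6 were called lower and 94 did not pass, against 6.29% and 2.21% of 14272 genes. The 6 lower genes were Ndufab1, the acyl carrier protein of complex I (-0.15, SE 0.04), Ndufb5 (-0.13), Ndufb6 (-0.12), Cox5a (-0.12), Atp5md (-0.12) and Atp5mpl (-0.10). Ndufab1 was counted at 336, 313, 320 and 361 CPM in mural-marker-high spots and at 376, 361, 379 and 375 CPM in the others. These changes were small and did not hold without the block, where none was called, or without section 3, where none was called either, in edgeR, and DESeq2 called 1. Endothelial (8 of 8 higher, median 0.92), fibroblast (8 of 8, median 2.21) and astrocyte markers (8 of 8, median 0.45) moved with the mural markers, so a vessel wall and its surroundings cannot be told apart in these spots.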

How the data were processed

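Spatial transcriptomes of 4 sections were analysed, each a 10x Visium library. The authors made the files with Space Ranger 1.3.1 (named in the matrix headers; the submitters' processing notes name mm10) and deposited 1 matrix of raw UMI counts for each section, not normalized. Spots under 500 UMIs were left out (1 to 26 a section). Within each section the counts of a spot group were added up, and the sums were tested with edgeR 4.0.16 in R 4.3.3 (filterByExpr, TMM, quasi-likelihood test, Benjamini-Hochberg adjustment over all genes tested), with section as a block. Groups of a section are the same slide and tissue, so section pairs them, and deviations of groups of 1 section correlated at 0.15 to 0.51 over genes. A marker score was the observed minus the expected UMIs over the square root of the expected, a group needed at least 20 spots in a section, and an SE is the log2 fold change over the square root of F. Each section was counted once, since any pair differed by more than counting error over genes (chi-square over degrees of freedom, 14.5 to 55.4), and pairs shared 427 to 1989 barcode strings, which are positions on the slide. DESeq2 1.42.0, other scalings, filters, spot groups and thinning to 5000 UMIs a spot (72 to 427 spots too shallow) were tried. The fits were also run on counts simulated with the dispersions they had estimated. Such counts cannot show whether the model suits the spread of these data. The members and all lists were chosen with earlier results of these data known, and the lists are no independent support. Genes were named by rule as the 3 highest and 3 lowest called in each comparison, isoform families, the highest gene of each complex, complex II, and calls against the majority. Other called genes are named to show what each complex held. Promoters came from RefSeq, where 84 of 102 genes had an entry (100 matched by symbol and 2 by synonym).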

Additional observations from a re-analysis of the deposited data

Results flagged for a closer look

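Of 94 values measured in 4 sections, 5 had 1 section far from the other 3 for the range of the 4, where chance gives about 1 in 20 (4.7). Over all spots, Ndufa4 stood at 1722 CPM in section 2 and 1883 to 1898 CPM in the others. Ndufab1 stood at 357 CPM in section 2 and 372 to 374 CPM in the others. The log2 ratio of Cox6b2 between VGLUT2 and VGLUT1 spots was 0.71 in section 1 and 0.99 to 1.05 in the others. Summed complex I in white matter was 14212 CPM in section 4 and 15110 to 15184 CPM in the others. The summed log2 ratio of complex III between mural-marker-high and other spots was -0.086 in section 2 and -0.05 in each of the others.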

How the results depend on the processing

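Only named genes called in the fit given first were recomputed under the alternatives, so a gained call could not appear. Of their values, 525 kept direction and call, 130 kept direction and lost the call, and 0 reversed. Counts of genes called moved more.
Between neuron-rich and white matter spots, 35 higher (34.3%, against 19.3% of all genes) became 61 with total-UMI scaling (59.8%, 24.8%), 20 with only the 2 groups in the fit (20 of 100 tested, 19.3%) and 12 with thinned spots (12.1%, 13.3%). The 3 lower (against 21.0%) became 5 with DESeq2 (against 21.0%), thinned spots (15.0%) or the top 20% of spots (21.7%). Leaving out 1 section gave 8 to 31 higher (without section 3 7.92%, against 13.8%) and 3 to 5 lower (5 without section 4, against 18.9%).
Between choroid plexus and neuron-rich spots, 5 higher (against 14.6% of all genes) became 8 with at least 5 choroid plexus markers (against 17.1%). The 10 lower (9.8%, against 11.4% of all genes) became 21 with DESeq2 (20.6%, 11.3%), 17 with at least 2 markers (16.7%, 15.1%), 21 with at least 5 (20.6%, 15.0%), 20 with the second marker lists (19.6%, 10.6%), 18 with the top 20% of spots (17.6%, 11.9%), 23 with total-UMI scaling (22.5%, 13.6%), 5 with thinned spots (5.05%, 8.02%) and 1 with sections with choroid plexus only (0.99%, 6.86%). The share called lower thus lay above or below that of all genes depending on the setting. Leaving out 1 section gave 4 to 5 higher and 2 to 10 lower. The lower count was 5 without section 1 (against 8.05%), 6 without section 3 (9.17%) and 2 without section 4 (6.79%).
Between choroid plexus and white matter, 5 of 102 higher (against 4.27% of all genes) became 8 with DESeq2 (against 4.44%). The count was 9 with at least 2 markers (against 6.75%), at least 5 markers (8.67%) or the top 5% of spots (6.42%). It was 1 with sections with choroid plexus only (1.29%). The 1 lower (against 6.06%) became 2 with DESeq2 (against 5.88%) or the top 20% (3.58%) and 5 with at least 5 markers (6.71%). It became 0 in edgeR with thinned spots (3.35%), sections with choroid plexus only (3.44%) or without the block (4.7%). Leaving out 1 section gave 2 to 5 higher (2 without section 3, against 2.57%, and 3 without section 4, against 4.06%) and 0 to 1 lower (0 without section 1, against 1.61%). The median of the 102 genes turned from 0.06 to -0.0033 with at least 5 markers and to -0.038 with the top 20%.
Between VGLUT2 and VGLUT1 spots, 4 higher (against 7.23% of all genes) became 2 with DESeq2 (against 4.28%) or the top 5% (6.67%). With 1 section left out it was 0 to 4 (0 without section 2, against 4.78%, and 2 without section 3, against 4.49%). The 0 lower (against 9.45%) became 2 without the filter (against 6.55%) and 1 with the top 5% (7.7%) or total-UMI scaling (8.17%). It was 0 to 1 with 1 section left out (1 without section 2, against 6.27%).
Between striatal and VGLUT1 spots, 29 higher (28.4%, against 20.5% of all genes) became 17 with DESeq2 (16.7%, 13.4%), 9 with total-UMI scaling (8.82%, 13.6%) and 14 to 30 with 1 section left out (15 without section 2, 14.7% against 15.1%, and 14 without section 4, 13.7% against 17.2%). The 4 lower (against 20.7%) became 2 with DESeq2 (against 15.1%) or the top 5% (18.8%) and 11 with total-UMI scaling (27.2%). It was 2 to 3 with 1 section left out (2 without section 3, against 17.2%). The median turned to -0.0090 with total-UMI scaling.
For mural-marker-high spots, 6 lower (against 2.21% of all genes) became 1 with DESeq2 (against 0.518%) or the top 5% (1.31%) and 25 without the filter (3.32%). With 1 section left out it was 0 to 4 (2 without section 1 or 2, against 1.23% and 1.34%, and 0 without section 3, against 0.76%). The 2 higher (against 6.29%) became 2 to 3 with 1 section left out.
Without the replicate block, the calls were 1 higher for VGLUT2 (against 4.22% of all genes) and, for striatal, 19 higher (against 16.3%) and 1 lower (17.2%). They were 0 lower for choroid plexus over white matter (against 4.7%) and for mural-marker-high spots (0.00701%).
With a total that leaves out the mitochondrially encoded genes, the spot group markers and Ttr, summed log2 ratios with choroid plexus moved. The ratio over neuron-rich spots went from -0.19 to -0.056, with complex III at 0.051 and complex V at 0.0060. The ratio over white matter went from 0.08 to 0.16. The cause of these shifts was not tested. The planned marker enrichment of 3-fold could give no VGLUT1 group, so that setting has no value, and the 2-fold limit and the fit of sections with choroid plexus only were chosen after seeing the data.
Depth limits the low isoforms most, since white matter sums held 2 to 10 UMIs of Cox8b and 5 to 36 of Cox6a2.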

Other observations

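The other pathway lists gave the following counts in the remaining contrasts, and no list was tested as a set. Over all genes, 7.23% were called higher and 9.45% lower in VGLUT2 spots, and 20.5% and 20.7% in striatal spots. In mural-marker-high spots it was 6.29% and 2.21%. Between neuron-rich and white matter spots it was 19.3% and 21.0%, and between choroid plexus and white matter 4.27% and 6.06%. In VGLUT2 spots, 2 of 13 mitochondrially encoded subunits were higher than in VGLUT1 spots (median log2 fold change 0.14). In striatal spots, 9 of 16 mitochondrial carriers and membrane proteins were higher than in VGLUT1 spots (median 0.23), 6 of 16 glycolysis genes were lower and 2 higher (median -0.04), and 3 of 13 genes of fatty acid oxidation were higher (median 0.16). In mural-marker-high spots, 12 of 13 mitochondrially encoded subunits were higher (median 0.16), 5 of 16 glycolysis genes were lower and 1 higher (median -0.09), and 4 of 13 genes of fatty acid oxidation were higher (median 0.26). Between neuron-rich and white matter spots, 8 of 16 mitochondrial carriers and membrane proteins were higher (median 0.24). Between choroid plexus and white matter, 0 of 13 mitochondrially encoded subunits were called in edgeR (median -0.18).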
